A study of Mus musculus with 12 samples.

Results

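Proteasome subunit transcripts were examined in the mouse eye across 6 circadian times, with and without a retina-specific deletion of Nr3c1, the gene of the glucocorticoid receptor. The members were chosen by name, as every entry of the count table whose symbol was Psma, Psmb, Psmc or Psmd followed by a number. This gave 39 of 32517 gene entries, of which 38 passed the filter on low counts and were tested. The exception was Psma8, with 0 to 4 counts per library. All mice were male and aged 12 weeks. The cKO mice were Cre+ and carried the retina-specific Nr3c1 deletion, and the WT mice were Cre-. Both genotypes spent 2 weeks in a cycle of 12 h light and 12 h dark before constant darkness, and none received a drug. Sampling of whole eyes was on day 2 of constant darkness, at circadian time (CT, hours after circadian time 0) 2, 6, 10, 14, 18 and 22. Each library pooled equal RNA amounts of 3 mice, giving 6 cKO libraries and 6 WT libraries, 1 for each genotype and time. The sources used here do not name the Cre driver, the deleted exons, the strain or whether WT mice carried a floxed allele. Single mice were not sequenced, so their spread is unknown.

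The proteasome degrades proteins that carry ubiquitin chains. Its 20S core is a barrel in which rings of alpha subunits (Psma) gate the entry and rings of beta subunits (Psmb) hold the proteolytic sites, and its 19S cap recognises, unfolds and feeds in substrates with an ATPase ring (Psmc) and non-ATPase subunits (Psmd). When proteasome activity is limiting, mammalian cells raise most subunit genes together through the transcription factor NRF1 (Nfe2l1), which binds antioxidant response elements. Interferons induce a set of alternative beta subunits that replace the constitutive catalytic ones and alter the peptides made for MHC class I. In the retina, photoreceptors renew large amounts of protein each day, and the ubiquitin-proteasome system clears misfolded proteins.

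Library totals lay between 10466253 and 10686868 counts. Values are CPM, counts scaled to a common library total with TMM factors, and the coefficient of variation that edgeR estimated between pools was 6.06%. Nr3c1 had 38.8, 49.3, 42.9, 49.3, 45.0 and 49.6 CPM in cKO eyes at CT2 to CT22, against 71.8, 65.9, 55.4, 76.1, 65.3 and 60.6 CPM in WT eyes. All cKO libraries lay below all WT libraries, and the log2 difference was -0.52 ± 0.06 (SE; edgeR quasi-likelihood test, adjusted p = 0.0018, Benjamini-Hochberg over 15134 genes). The labels disagree on the tissue, since the protocols name whole eyes while the characteristics name ciliary body and a nonpigmented ciliary epithelial line. Sag, the rod arrestin, averaged 3748 CPM in cKO eyes and 3049 CPM in WT eyes, and Cryaa, a lens crystallin, averaged 19260 CPM in cKO eyes and 17130 CPM in WT eyes, so retina and lens were both in the libraries. In such bulk samples, fewer cells of a type and less RNA per cell cannot be told apart.

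No proteasome subunit passed the test for a difference between genotypes. Of the 38 tested members, 19 were higher and 19 lower in cKO eyes, with a median log2 difference of -0.01, against -0.00016 over all tested genes. The count past the edgeR quasi-likelihood test at an adjusted p of 0.05 was 0 of 38, beside 0.139% of all tested genes, and the lowest adjusted p was 0.776. At an unadjusted p under 0.05 there was 1 of 38 members, Psma3, beside 891 of 15134 tested genes. After adjustment DESeq2 and limma-trend called none. The differences ran from -0.18 for Psmb5 to 0.05 for Psmc4. In no member did the cKO and WT libraries lie apart without overlap, which 0.218% of all tested genes did. The summed level of the subunits was 2822 to 2881 CPM in cKO eyes and 2840 to 2987 CPM in WT eyes, and the ranges overlapped. Some marker lists of other eye tissues leaned with genotype. All 12 lens genes were higher in cKO eyes, with summed levels of 47130 to 64410 CPM in cKO and 35570 to 56010 CPM in WT, and all 8 stroma and sclera genes were lower, with 674.6 to 1300 CPM in cKO and 796.8 to 1570 CPM in WT. All 7 tested genes of extraocular muscle were lower too, with 627 to 919.2 CPM in cKO and 682.7 to 903.8 CPM in WT. None of the genes of these 3 lists passed the test. At an unadjusted p under 0.05 there were 9 of 12 lens, 3 of 8 stroma and sclera and 2 of 7 muscle genes, beside 891 of 15134 tested genes. Among retinal cell lists, 8 of 10 rod, 7 of 8 cone, 4 of 7 bipolar cell and 4 of 6 Müller glia genes were higher in cKO eyes. Of the amacrine and ganglion cell genes 7 of 8 were lower. No gene of the retinal cell lists passed the test. Red blood cell genes were lower in cKO eyes in 4 of 5, with a median log2 difference of -0.31, and vessel genes in 4 of 5 (-0.03). Immune cell genes were higher in 6 of 10 and pigment epithelium genes in 3 of 6. None of these genes passed the test. Of 8 cornea and conjunctiva genes, 3 were higher and 5 lower in cKO eyes, with a median log2 difference of -0.01, and 1 passed the test. This was the keratin gene Krt13, with 378.0 ± 32.7 CPM in cKO eyes and 292.3 ± 32.0 CPM in WT eyes (SD, n = 6 each). Its log2 difference was 0.37 ± 0.06 (edgeR, adjusted p = 0.0228). The part of these tissues and cells in the subunits' values was not tested.

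**Figure D1:**
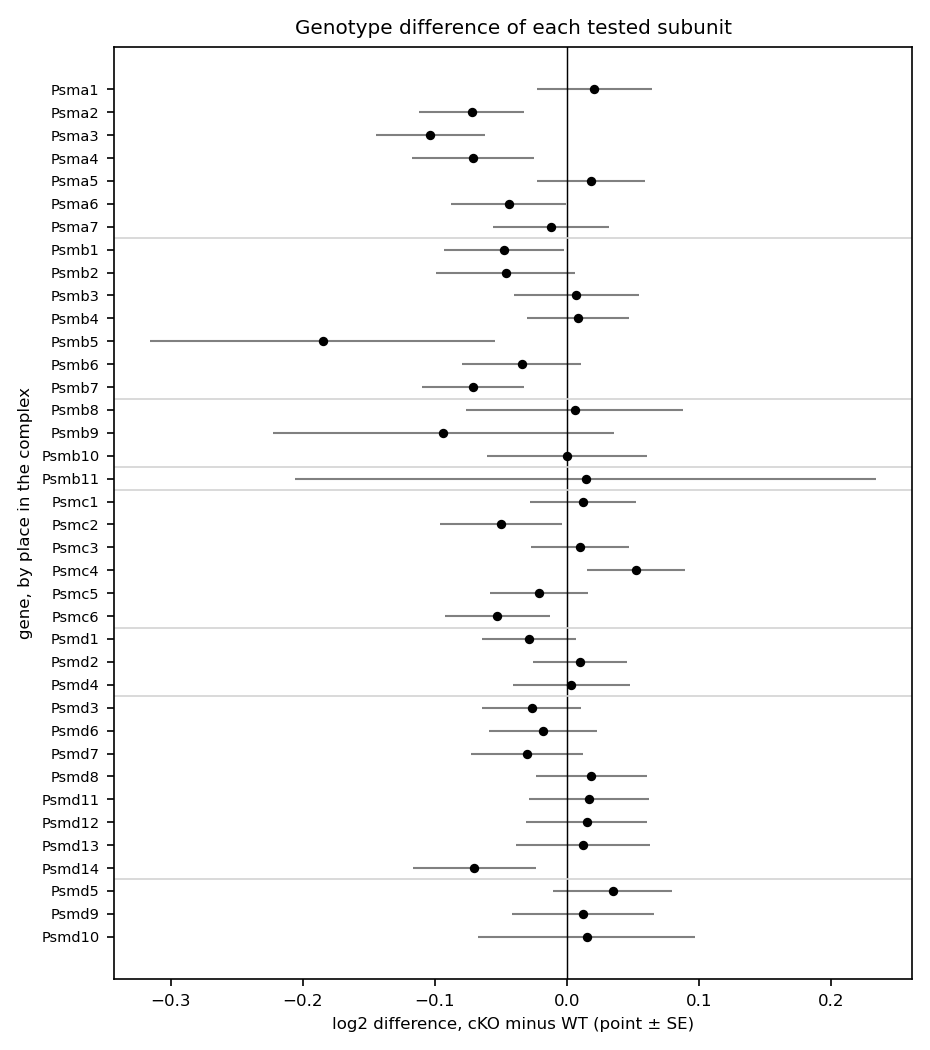
Log2 difference between cKO and WT (x axis, cKO minus WT) of each of the 38 tested subunits (rows, by place in the complex), as the edgeR estimate (point) with its SE (bar). Most points lie within 0.1 of 0 on either side, with Psmb5 farthest left at -0.18.

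The transcripts also varied little between libraries. The SD of log2 CPM over all 12 libraries had a median of 0.0688 among the members, against 0.127 among all tested genes, which placed the median member at percentile 10.8. These percentiles are over tested genes of all levels, and the part of level in them was not tested. Of the 38 tested members, 34 lay below the median gene and 28 below percentile 25. The other 4 were the thymus subunit Psmb11 (0.314), the catalytic subunit Psmb5 (0.286) and the inducible subunits Psmb9 (0.199) and Psmb8 (0.172). Psmb11 had 10 to 21, Psmb9 41 to 70, Psmb8 165 to 254 and Psmb5 410 to 814 counts per library, and the part of counting noise in these spreads was not tested. Across the 33 constitutive subunits and assembly chaperones other than Psmb5, the highest library was 1.09 to 1.31 times the lowest, with a median of 1.17 times. For Psmb5 this ratio was 1.94.

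**Figure D2:**
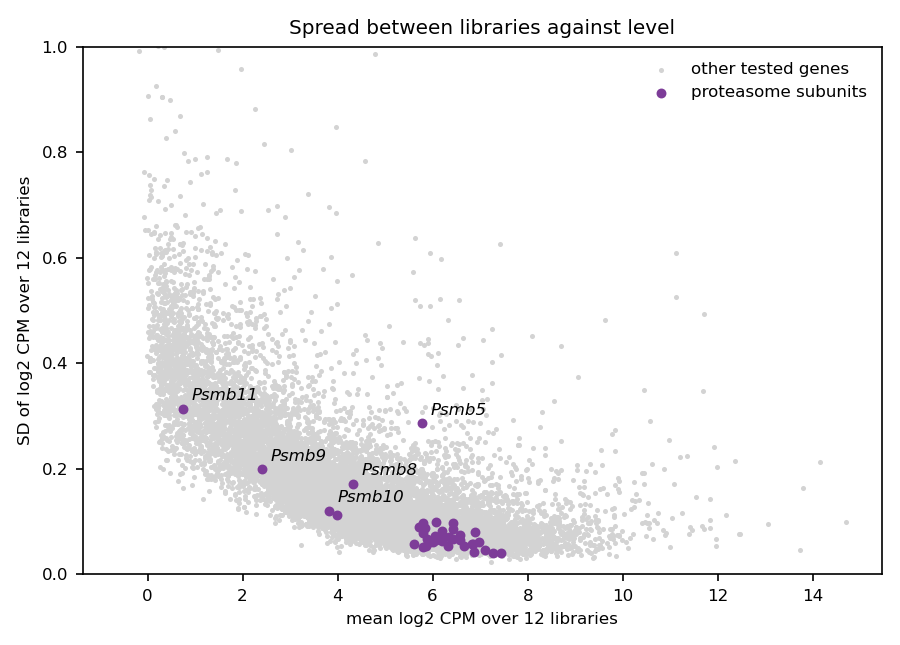
SD of log2 CPM over the 12 libraries (y axis) against mean log2 CPM (x axis) for each tested gene, with proteasome subunits in purple and 49 other genes beyond the upper axis limit of 1. Most subunits lie along the lower edge at their level, and Psmb5 (0.286) lies above the other subunits of its level.

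The alpha ring forms the gate of the core. Per kilobase of transcript (the median length of the annotated coding transcripts), its 7 tested members ranged from 24.5 CPM per kb for Psma2 to 80.3 for Psma6 in cKO eyes, and from 25.7 for Psma2 to 82.8 for Psma6 in WT eyes. The length used was 2.91 kb for Psma2 and 0.91 to 1.85 kb for the other tested members. Not scaled by length, Psma2 averaged 71.3 CPM in cKO eyes and 74.9 CPM in WT eyes. Psma5 was then the lowest, at 58.2 CPM in cKO and 57.5 CPM in WT. By genotype 2 of the 7 were higher and 5 lower in cKO eyes, with a median log2 difference of -0.04. Psma3 had the smallest genotype p of all members. Its lowest, median and highest levels were 79.1, 83.1 and 87.0 CPM in cKO eyes, against 82.8, 91.3 and 95.2 CPM in WT eyes. The ranges overlapped, and the log2 difference of -0.10 ± 0.04 did not pass the edgeR test after adjustment (adjusted p = 0.776). Psma2 was lower in cKO at all 6 times, with 68.6, 71.0 and 74.9 CPM as lowest, median and highest in cKO eyes and 70.6, 74.2 and 78.9 CPM in WT eyes. Its log2 difference was -0.07 ± 0.04 (edgeR, adjusted p = 0.884). Psma4 had the fourth smallest p, at -0.07 ± 0.05 (edgeR, adjusted p = 0.910), with 58.9 to 68.8 CPM in cKO eyes and 62.1 to 77.0 CPM in WT eyes. Psma1, Psma5, Psma6 and Psma7 differed by -0.04 to 0.02 on the log2 scale, each less than 1.1 times its SE. Psma8, the testis-specific alpha subunit, stood at 0 to 0.379 CPM in cKO eyes and 0.0917 to 0.287 CPM in WT eyes.

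The beta ring holds the proteolytic sites on Psmb6 (cleaving after acidic residues), Psmb7 (after basic residues) and Psmb5 (after hydrophobic residues), and Psmb1, Psmb2, Psmb3 and Psmb4 are structural. The structural members averaged 80.3 CPM (Psmb1), 55.0 CPM (Psmb2), 66.5 CPM (Psmb3) and 117.5 CPM (Psmb4) in cKO eyes, against 83.0, 56.9, 66.2 and 116.8 CPM in WT eyes, and their log2 differences lay between -0.05 and 0.01. Psmb6 had 85.6, 82.6, 89.8, 84.1, 84.8 and 84.4 CPM in cKO eyes at CT2 to CT22, against 81.0, 95.2, 83.3, 90.8, 88.3 and 85.4 CPM in WT eyes. Psmb7 had 102.0, 97.4, 103.1, 100.2, 97.4 and 94.6 CPM in cKO eyes, against 101.8, 108.1, 102.7, 104.4, 102.6 and 105.1 CPM in WT eyes. Neither passed a rhythm test in either genotype. Psmb7 had the second smallest genotype p, with a log2 difference of -0.07 ± 0.04 (edgeR, adjusted p = 0.884), and its ranges met between 101.8 and 103.1 CPM.

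Psmb5, the target of bortezomib-type inhibitors, was the 1 member with a pattern over time that passed a test. Its promoter and that of Psmb6, another catalytic subunit of the same ring, are printed for comparison because NRF1 is known to act on this family through antioxidant response elements. They come from RefSeq (GRCm38.p6), run 250 bases before to 50 after the gene start, and carry in capitals the matches to the searched letters TGACNNNGC. Psmb5 lies on the minus strand at chr14:54617946-54618245 and Psmb6 on the plus strand at chr11:70525107-70525406.
Psmb5: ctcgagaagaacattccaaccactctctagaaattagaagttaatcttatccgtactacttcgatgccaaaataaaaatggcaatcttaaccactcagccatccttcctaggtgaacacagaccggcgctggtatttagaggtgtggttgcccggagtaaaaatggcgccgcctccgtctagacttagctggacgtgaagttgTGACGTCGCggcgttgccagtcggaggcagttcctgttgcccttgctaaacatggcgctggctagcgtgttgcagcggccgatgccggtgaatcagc
Psmb6: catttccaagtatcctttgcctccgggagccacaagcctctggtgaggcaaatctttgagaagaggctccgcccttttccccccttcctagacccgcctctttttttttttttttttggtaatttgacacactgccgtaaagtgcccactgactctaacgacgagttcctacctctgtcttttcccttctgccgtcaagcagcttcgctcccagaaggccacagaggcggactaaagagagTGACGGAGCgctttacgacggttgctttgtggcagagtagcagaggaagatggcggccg
The match began 47 bases before the start of Psmb5 and 9 bases before that of Psmb6. Both strands were searched in 34 promoters of 32 member genes. TGACNNNGC occurred in 5 of them (14.7%), those of Psmb5, Psmb6, Psmc6, Psmd9 and Psmd12, against 12.4% of all 32851 promoters. The interferon-stimulated response element, searched as GAAA, any 2 bases and GAAA, occurred in 3 (8.82%, against 3.44% of all promoters). These were the promoters of Psmb3, Psmd4 and Psmd9. It did not occur in the 300 bases of Psmb8 (17:34197945-34198244) or Psmb9 (17:34187281-34187580). Both of these windows follow RefSeq starts and lie inside the GENCODE M21 gene spans (17:34197721-34201454 and 17:34181987-34187764). Bases before those spans were not searched. The E-box CACGTG of clock factors occurred in 3 (8.82%, against 7.15%), those of Psma4, Psmb10 and Psmd9. The glucocorticoid response element, searched as G, any base, ACA, any 3 bases, TGT, any base and C, occurred in 0 of 34, against 0.475% of all promoters. Matches of different motifs did not overlap in any member promoter, and a match is a description of the window only.

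Psmb5 had 43.0, 39.1, 51.6, 70.8, 58.4 and 49.98 CPM in cKO eyes at CT2, CT6, CT10, CT14, CT18 and CT22, against 61.4, 75.9, 60.2, 51.5, 44.9 and 60.4 CPM in WT eyes. The lowest cKO library was at CT6, where the WT level was highest, and the highest cKO library was at CT14, where WT was second lowest. Averaged over times the level was 52.1 ± 11.38 CPM in cKO eyes and 59.1 ± 10.48 CPM in WT eyes (SD, n = 6 each), and the genotype difference of -0.18 ± 0.13 on the log2 scale did not pass the edgeR test (adjusted p = 0.917). A 24 h cosine fitted within cKO had an amplitude of 0.38 ± 0.06 on the log2 scale, a peak 1.70 times the trough, and a peak at CT15.5 (edgeR, adjusted p = 0.0437). Within WT the amplitude was 0.30 ± 0.06, a peak 1.52 times the trough at CT5.0, and did not pass (edgeR, adjusted p = 0.0777). The test of the difference between the 2 fitted rhythms passed, with an amplitude of the difference of 0.67 ± 0.08 (edgeR, adjusted p = 0.0319). Among the members 1 of 38 passed this test, beside 0.0132% of all tested genes, which is 2 genes in all, Pnp and Psmb5. Within cKO alone 1 of 38 members passed, beside 0.152%, and within WT none passed, beside 0.363% of all tested genes. At an unadjusted p under 0.05 within WT there were 3 of 38 members, Psmb5, Psmc2 and Psmd4, beside 1767 of 15134 tested genes. After adjustment DESeq2 called 1 member within WT, Psmb5.

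The size of the Psmb5 rhythm difference held when times were left out, while the adjusted call did not. Across all 12 alternatives its amplitude lay between 0.57 and 0.80, and it passed in 6, with adjusted p between 1.69e-05 and 0.843. The call was lost without the CT6 pair (amplitude 0.57, edgeR, adjusted p = 0.843), the CT10 pair (0.67, adjusted p = 0.132), the CT14 pair (0.61, adjusted p = 0.110) and the CT18 pair (0.70, adjusted p = 0.0707). It was also lost without the WT library of CT6 alone (0.61, adjusted p = 0.215) or the cKO library of CT14 alone (0.60, adjusted p = 0.0997). In each of these 6 the unadjusted p stayed under 0.05. Psmb5 was picked by this same test, and the alternatives share most libraries with it, so this p is no separate support. The cKO rhythm kept an amplitude of 0.30 to 0.44 over its 12 alternatives and passed in 6, with adjusted p between 0.00102 and 0.322. It no longer passed without the CT6, CT10, CT14, CT18 or CT22 pair or the cKO CT14 library. Its unadjusted p stayed under 0.05 in each, with the same limit. The WT rhythm had an amplitude of 0.24 to 0.37 and passed in 3 of 12, with no filter (adjusted p = 0.0443), by DESeq2 (0.0373) and without the CT2 pair (0.0268). Each point is 1 pool of 3 mice, so no time has a replicate within a genotype.

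**Figure D3:**
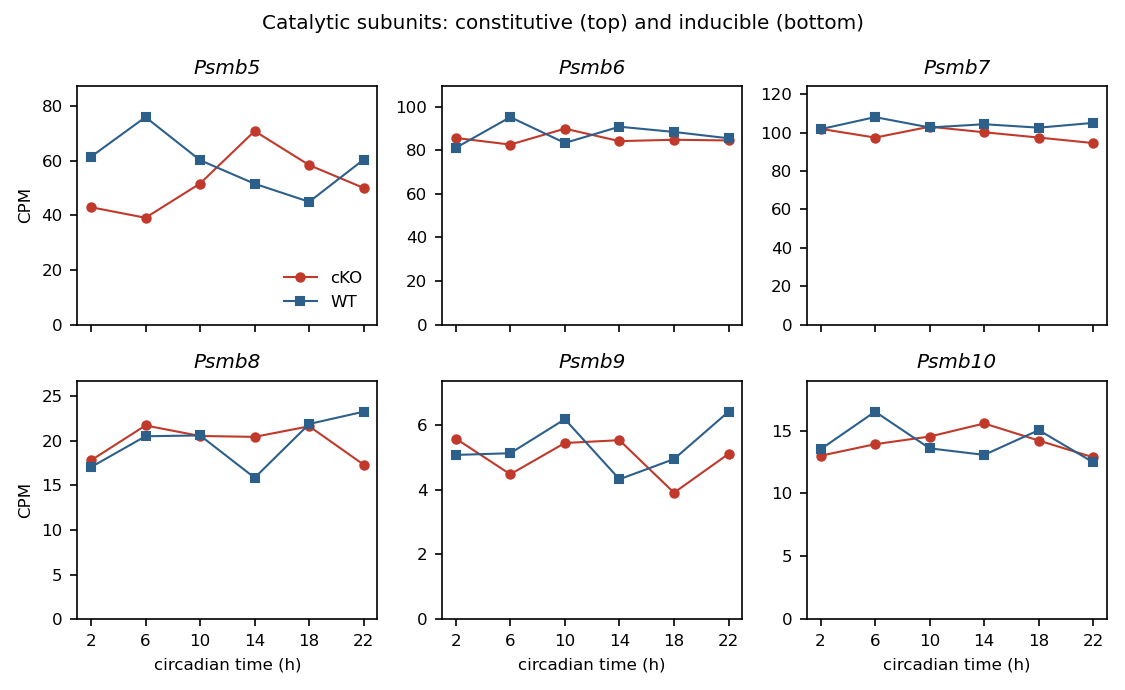
CPM (y axis, from 0) of the 3 constitutive catalytic subunits (top) and of the inducible subunit that replaces each (bottom) against circadian time in hours (x axis), in cKO (circles) and WT (squares), 1 pooled library per point. Psmb5 stands at 39.1 CPM in cKO and 75.9 CPM in WT at CT6 and at 70.8 CPM in cKO and 51.5 CPM in WT at CT14. From CT14 to CT18 it falls in both genotypes. Psmb6 stays within 82.6 to 89.8 CPM in cKO and 81.0 to 95.2 CPM in WT.

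Psmb6 and Psmb7 are part of the same ring as Psmb5, in equal number. The ratio of Psmb5 to the mean of Psmb6 and Psmb7, in CPM, was 0.458, 0.434, 0.535, 0.768, 0.641 and 0.558 in cKO eyes at CT2 to CT22, against 0.672, 0.747, 0.647, 0.528, 0.471 and 0.634 in WT eyes. Over the 12 libraries the Pearson r of Psmb5 with the other tested members ran from -0.417 (Psmd9) to 0.569 (Psma2), with a median of 0.135. The mean of the alpha ring, which does not contain Psmb5, had r = 0.609 with it. The r of single alpha members was 0.569 (Psma2), 0.437 (Psma6), 0.428 (Psma7), 0.418 (Psma3), 0.411 (Psma4), 0.208 (Psma1) and 0.112 (Psma5). Without the 2 libraries farthest from the Psmb5 median, these values were 0.256, 0.00806, 0.55, 0.288, 0.314, -0.247 and -0.00372. The list means were not recomputed in that way. The cell type marker lists had r between -0.497 (red blood cells) and 0.424 (amacrine and ganglion cells) with Psmb5. Rod and lens lists had r of -0.376 and -0.345. The red blood cell markers also moved in the test of the rhythm difference, where all 5 had an unadjusted p under 0.05 and none passed after adjustment, beside 390 of 15134 tested genes at that unadjusted level. Their summed level was 116.3 to 242.1 CPM in cKO eyes and 172.9 to 506.5 CPM in WT eyes. These are descriptions over the same 12 libraries, and the part of cell make-up in the level of Psmb5 was not tested. The processed pseudogenes Psmb5-ps, Psmb6-ps and Psmb6-ps2 had 0 counts in every library, and the annotation places no other protein-coding or antisense gene over Psmb5.

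The genes whose levels followed Psmb5 most closely were looked up after its values were seen, by the absolute Pearson r of log2 CPM over 12 libraries among 15133 other tested genes. The closest was Pnp, purine nucleoside phosphorylase, with r = 0.938 (Spearman coefficient 0.93, r = 0.931 without the 2 libraries farthest from the median). Within genotypes r was 0.971 in cKO and 0.896 in WT. Pnp had 41.9, 38.9, 53.4, 89.3, 67.0 and 63.0 CPM in cKO eyes at CT2 to CT22, against 78.5, 78.8, 60.9, 55.6, 49.9 and 69.9 CPM in WT eyes. Like Psmb5 it was low in cKO at CT2 and CT6 and high there in WT, and it was the other gene past the test of the rhythm difference (edgeR, adjusted p = 0.0117). Next came Ppp1r3e, a regulatory subunit of a glycogen-bound phosphatase, with r = 0.902 (Spearman 0.923) and 2.70, 3.34, 5.16, 6.66, 4.86 and 4.45 CPM in cKO eyes, against 7.66, 7.93, 7.40, 4.999, 3.33 and 5.68 CPM in WT eyes. 3632451O06Rik ran the opposite way, with r = -0.902 (Spearman -0.944), and had 11.7 to 24.5 CPM in cKO eyes and 9.61 to 21.5 CPM in WT eyes.

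All of these lie on chromosome 14, as does Psmb5 (GENCODE M21, GRCm38, 14:54614119-54618022, minus strand). Pnp lies 3.67 Mb and 3632451O06Rik 4.88 Mb below it in coordinate, and Ppp1r3e 0.259 Mb above it. Of the 10 genes most like or unlike Psmb5, 5 of the 10 placed were on chromosome 14 (50%), also including Ang (r = 0.862) and Peli2 (r = 0.848). Of the closest 50 the share was 11 of 49 placed genes (22.4%) and of the closest 100 it was 14 of 99 (14.1%), against 523 of 15047 tested genes (3.48%). The 14 lay at -7.24 to 19 Mb from Psmb5, 6 with positive and 8 with negative r. Direct neighbours did not follow it as closely. Psmb11, the nearest tested gene above, had r = -0.185, Cdh24 had -0.135, 4931414P19Rik, the nearest below, had -0.347, and Acin1 had 0.47, while Oxa1l at 0.251 Mb below had -0.76. Genes with high and low r thus lay intermixed along the chromosome. The genotypes of the pooled mice on chromosome 14 are not known from the sources used here, and whether the pools differed there was not tested.

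**Figure D4:**
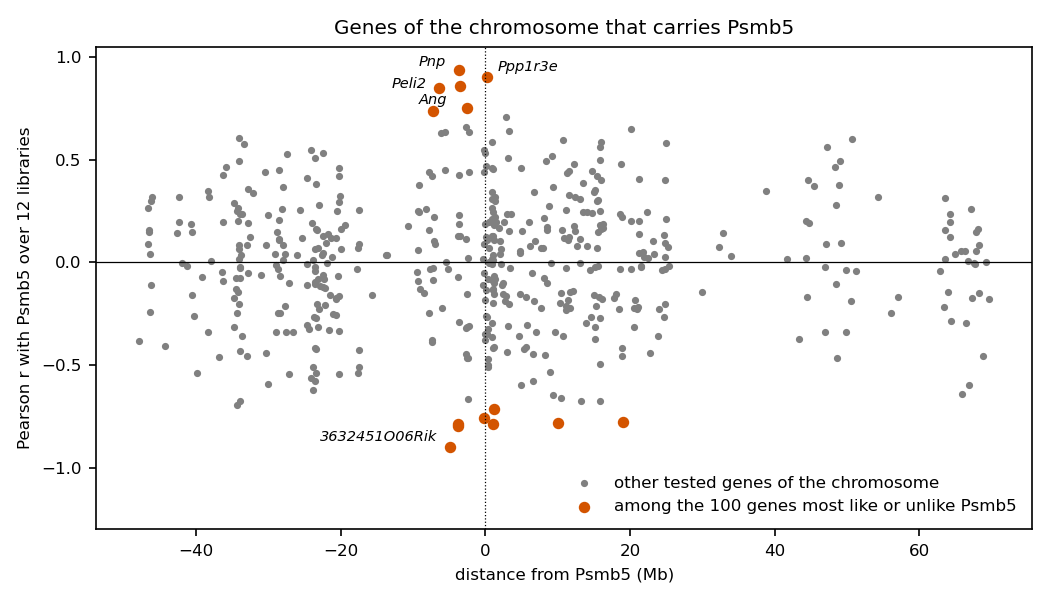
Pearson r of log2 CPM with Psmb5 over 12 libraries (y axis) for each tested gene of chromosome 14 against its distance from Psmb5 in Mb (x axis), with the genes among the 100 closest by absolute r in orange. The orange points lie at -7.24 to 19 Mb from Psmb5, among many genes with r near 0.

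The inducible subunits Psmb8, Psmb9 and Psmb10 replace Psmb5, Psmb6 and Psmb7 in the immunoproteasome. Psmb8 averaged 19.9 ± 1.9 CPM in cKO eyes and 19.9 ± 2.9 CPM in WT eyes, Psmb9 5.01 ± 0.68 CPM in cKO and 5.35 ± 0.80 CPM in WT, and Psmb10 14.0 ± 1.0 CPM in cKO and 14.0 ± 1.5 CPM in WT (SD, n = 6 each). None differed by genotype, with log2 differences of 0.01 ± 0.08, -0.09 ± 0.13 and 0.00 ± 0.06 (edgeR, lowest adjusted p = 0.953). Per kilobase of transcript, Psmb8, Psmb9 and Psmb10 stood at 12.2, 3.71 and 10.7 CPM per kb in cKO eyes and at 12.2, 3.96 and 10.7 in WT eyes. Psmb5, Psmb6 and Psmb7 stood at 68.6, 106.8 and 85.5 CPM per kb in cKO eyes and at 77.7, 109.4 and 89.8 in WT eyes. The ratio of Psmb8 to Psmb5 per kb was 0.135 to 0.260 in cKO eyes and 0.126 to 0.228 in WT eyes, that of Psmb9 to Psmb6 0.0272 to 0.0388 in cKO and 0.0281 to 0.0443 in WT, and that of Psmb10 to Psmb7 0.113 to 0.138 in cKO and 0.105 to 0.135 in WT. The constitutive transcript was thus the more abundant in every library. Psmb11, the beta subunit of cortical thymic epithelium, had 0.956 to 2.02 CPM in cKO eyes and 1.06 to 2.00 CPM in WT eyes.

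The ATPase ring unfolds substrates. Per kilobase of transcript it ran from 41.6 CPM per kb for Psmc6 to 104 for Psmc5 in cKO eyes and from 43.1 for Psmc6 to 105.6 for Psmc5 in WT eyes. By genotype 3 of 6 were higher and 3 lower in cKO, between -0.05 and 0.05 on the log2 scale. Psmc4 was higher in cKO at all 6 times, with 79.2, 80.8 and 86.1 CPM as lowest, median and highest in cKO eyes and 75.2, 78.7 and 82.7 CPM in WT eyes. The ranges overlapped, and its difference of 0.05 ± 0.04 did not pass the edgeR test (adjusted p = 0.917). Psma2, Psmc4 and Psmd1 were the 3 members with the same direction at all 6 times (7.89% of members, against 3.70% of all tested genes). The SD of Psmc3 and Psmc5 over libraries lay at percentiles 0.535 and 1.40 of all tested genes, with levels of 155.8 ± 3.0 and 136.9 ± 3.0 CPM in cKO eyes and 154.8 ± 5.6 and 139.0 ± 5.7 CPM in WT eyes (SD, n = 6 each).

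The rest of the 19S base docks ubiquitin receptors and shuttle factors on Psmd1 and Psmd2 and captures ubiquitin chains on Psmd4. Psmd2 was the most abundant member in CPM, at 174.2 ± 5.3 in cKO eyes and 173.0 ± 4.5 in WT eyes. Psmd4 averaged 118.9 ± 2.5 CPM in cKO eyes and 118.8 ± 9.4 CPM in WT eyes (SD, n = 6 each), ranging from 114.9 to 121.5 CPM in cKO and from 106.7 to 133.3 CPM in WT. Psmd1 was lower in cKO at all 6 times by a small amount, 112.1 ± 4.1 CPM in cKO against 114.3 ± 4.9 CPM in WT, with a log2 difference of -0.03 ± 0.04 (edgeR, adjusted p = 0.948). In the lid, 4 of 8 members were higher and 4 lower in cKO, between -0.07 for Psmd14 and 0.02 for Psmd8. Psmd14, the metalloprotease that cuts ubiquitin off the substrate, averaged 56.1 ± 3.1 CPM in cKO eyes and 58.9 ± 3.5 CPM in WT eyes, a difference of -0.07 ± 0.05 (edgeR, adjusted p = 0.916). Psmd11, whose level limits proteasome assembly in human embryonic stem cells, averaged 59.2 ± 3.6 CPM in cKO and 58.5 ± 1.9 CPM in WT. The chaperones that assemble the base and leave it, Psmd5, Psmd9 and Psmd10, averaged 49.4, 52.6 and 15.9 CPM in cKO eyes and 48.2, 52.1 and 15.7 CPM in WT eyes. All of these ranges overlapped between genotypes.

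No member passed the test for a 24 h rhythm common to both genotypes, beside 3.46% of all tested genes. None had an unadjusted p under 0.05, beside 2831 of 15134 tested genes. DESeq2 and limma-trend called none either. The median amplitude was 0.04 on the log2 scale, a peak 1.06 times the trough, against 0.08 and 1.12 times among all tested genes. Of the members, 37 of 38 had an amplitude below that of the median gene, and the exception was Psmb11, with 10 to 21 counts per library. The genes compared were of all levels, and the part of level in these amplitudes was not tested. The smallest p belonged to Psmd14, with 51.5 to 60.3 CPM in cKO eyes and 53.1 to 63.3 CPM in WT eyes, a peak 1.11 times the trough at CT6.15 (edgeR, adjusted p = 0.299). Psmc2, an ATPase, came next with 1.12 times and CT5.33 (edgeR, adjusted p = 0.328), from 78.4 to 92.4 CPM in cKO and 80.1 to 96.7 CPM in WT. Psmd4 had 1.10 times and CT11.3 (edgeR, adjusted p = 0.328), and Psmd1 1.08 times and CT8.22 (edgeR, adjusted p = 0.409).

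In the heat map of members by library 2 libraries stood out, and the counts and medians of members and of the core include Psmb5. WT at CT6 was the highest of the 12 libraries for 16 of 38 members, against 9.80% of all tested genes. This was mostly the 20S core, with 11 of 14 tested core members highest there, and 4 of 17 subunits of the 19S cap. The median deviation of the core members from their own means was 0.11 on the log2 scale in WT at CT6 and -0.05 to 0.02 in the other 11 libraries. The cKO library of the same time had a median deviation of -0.03. The cKO library of CT22 was the lowest for 10 of 38 members, against at most 4 for any other library. Its median deviation was -0.05 in the core and -0.02 in the cap, where WT at CT22 had -0.04 and cKO at CT10 had -0.02. The share of all tested genes that were lowest in the cKO library of CT22 was not counted, so a trait of the library as a whole cannot be told apart. These features were noticed in the data and not tested, as each time has 1 pool per genotype. The sum over the alpha genes reached 533.2 CPM in WT at CT6, against a WT minimum of 483.9 CPM and a cKO range of 470.2 to 492.8 CPM.

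**Figure D5:**
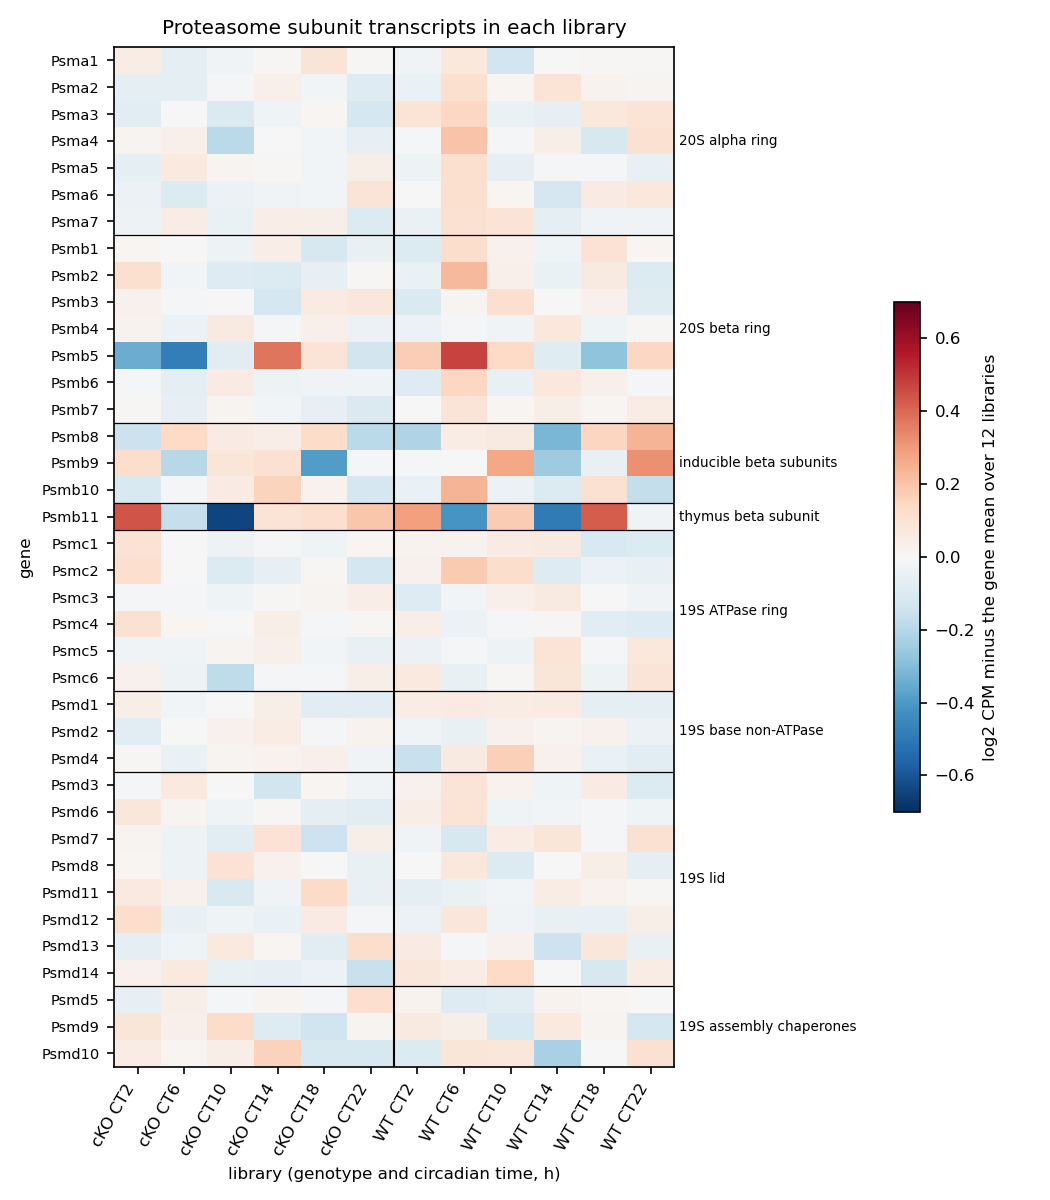
Log2 CPM of each of the 38 tested subunits (rows) in each library (columns, cKO left of the line and WT right of it, CT2 to CT22) minus the gene's mean over all 12 libraries, in colour. Most rows are pale, Psmb5 is blue at CT2 and CT6 and red at CT14 in cKO but red at CT6 and blue at CT18 in WT, the WT CT6 column is red across most of the 20S core, and Psmb11, with 10 to 21 counts per library, has the most contrasted row.

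Other genes of the pathway were taken from lists by role. None of the 5 activators and inhibitor, 5 assembly chaperones of the core, 9 bound partners, 5 NRF1 pathway genes, 13 ubiquitin and shuttle genes or 10 MHC class I pathway genes passed the genotype test (0.139% of all genes) or the shared rhythm test (3.46%). Their median log2 differences were -0.01, -0.02, -0.03, 0.01, 0.04 and 0.04. The interferon-induced activator pair Psme1 and Psme2 averaged 57.6 ± 2.9 and 56.1 ± 4.0 CPM in cKO eyes, against 58.2 ± 6.2 and 56.5 ± 5.5 CPM in WT eyes. The activator Psme4 was lower in cKO at all 6 times, with 56.8 to 60.7 CPM in cKO and 60.2 to 64.9 CPM in WT, but its difference of -0.10 ± 0.04 did not pass (edgeR, adjusted p = 0.824). Nfe2l1, the gene of NRF1, averaged 235.7 ± 9.8 CPM in cKO eyes and 236.4 ± 10.8 CPM in WT eyes. Its relative Nfe2l2, the regulator of the oxidative stress response, averaged 43.3 ± 6.3 CPM in cKO and 47.7 ± 3.4 CPM in WT, a difference of -0.14 ± 0.05 (edgeR, adjusted p = 0.705). Ddi2, the protease that releases NRF1 from the membrane, came nearest to a shared rhythm, with a peak 1.16 times the trough at CT16.7 (edgeR, adjusted p = 0.0549).

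In 2 of the other lists the smallest genotype p belonged to Psmg1 of the core chaperones (0.09 ± 0.08, adjusted p = 0.934) and to the deubiquitinase Usp14 of the bound partners (-0.10 ± 0.05, 0.848) by the edgeR test. In 3 lists the smallest shared rhythm p belonged to Psmg4 of the core chaperones (adjusted p = 0.178), the ubiquitin receptor Adrm1 of the bound partners (0.136) and B2m of the MHC class I pathway (0.197), also by edgeR. Among 10 interferon-stimulated genes, 2 passed the shared rhythm test, beside 3.46% of all tested genes, and the other 8 had no unadjusted p under 0.05. Irf7, an interferon regulatory factor, had 28.2 to 79.7 CPM in cKO eyes and 31.8 to 74.0 CPM in WT eyes, with a shared peak 2.87 times the trough at CT18.0 (edgeR, adjusted p = 1.28e-07), and Ifit3 had 1.39 times (edgeR, adjusted p = 0.0051). The inducible proteasome subunits did not pass that test, with adjusted p of 0.956 (Psmb8), 0.910 (Psmb9) and 0.669 (Psmb10) by edgeR, and the difference between them and Irf7 was not tested.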

How the data were processed

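RNA-seq counts per gene from 12 pooled whole-eye libraries were used as deposited, in a table the authors call raw data per the file headers. The counts are whole numbers, and the sources used here name no aligner, counter, strandedness or genome build. Of 32544 entries, 27 with names turned into dates were left out (a median of 0.158% of counts). Genes passed filterByExpr by genotype (minimum count 10, minimum total 15) in edgeR 4.0.16 (R 4.3.3), with TMM factors of 0.982 to 1.03. Quasi-likelihood F tests were run for genotype beside a factor for time (5 residual degrees of freedom), and for 24 h cosine and sine terms common to both genotypes (8) or within each (6). Amplitude is from mean to peak on the log2 scale, with the SE implied by F. P-values were adjusted by Benjamini-Hochberg over 15134 genes, with a threshold of 0.05. Log2 CPM used a prior count of 2. Each pool of 3 mice is 1 replicate. Pools of the same time share only that time, and their deviations from the genotype means correlated at 0.0559 to 0.201.

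Positions and transcript lengths came from GENCODE M21 (GRCm38) and RefSeq synonyms, which placed 99.4% of tested genes. The code was tested on simulated counts. Members and gene lists were chosen with earlier results of these data known. Named by rule were Nr3c1, members past a test or with the 4 smallest p, catalytic and tissue-restricted members, Nfe2l1, Psme1, Psme2 and the smallest p of each further list. Other names were chosen once values had been seen. A few genes the rule names are not reported here. Alternatives were DESeq2 1.42.0 (size factors and test), limma-trend (limma 3.58.1), no filter, each time left out, no time factor, cosine terms in its place, any difference between times and an added 12 h term. Leaving out the WT CT6 or cKO CT14 library, or Psmb5 from the median, was added after seeing the data.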

Additional observations from a re-analysis of the deposited data

Results flagged for a closer look

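Psmb5 was flagged because its 24 h rhythm differed between cKO and WT by the test of the difference itself (edgeR, adjusted p = 0.0319).

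Among 78 groups of 6 libraries looked at, 1 per member and genotype, 4 held a library far from the other 5, and chance flags about 1 in 20 groups. Psma5 had 62.5 CPM (670 counts) in WT at CT6, against 55.6 to 57.5 CPM in the other WT libraries. Psmc1 had 135 CPM (1397 counts) in cKO at CT2, against 122 to 127 CPM in the other cKO libraries. Psmc6 had 83.5 CPM (874 counts) in cKO at CT10, against 92.4 to 97.2 CPM in the other cKO libraries. Psma8 had 0.379 CPM in cKO at CT22, which is 4 counts, against 0 to 0.0963 CPM in the other cKO libraries.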

How the results depend on the processing

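The count of members past the genotype test and past the shared rhythm test was 0 in all 14 alternatives run for each, and the median genotype difference stayed between -0.0296 and 3.94e-06. Without the replicate block, that is with genotype alone and no time factor, the count of members was again 0, while 3 genes of all tested passed in place of 21. Over all genes the genotype count reached 51 without a filter. The shared rhythm count over all genes was 523, and 217 without the CT10 pair. The counts of members past a test within a genotype each concern Psmb5. Within cKO, leaving out pairs or the cKO CT14 library gave 0 to 1 in place of 1, and over all genes 3 to 69 in place of 23 across alternatives. Within WT, no filter gave 1, DESeq2 gave 1 and leaving out pairs gave 0 to 1, in place of 0, and over all genes 13 to 108 in place of 55. For the rhythm difference, leaving out pairs or 1 library gave 0 to 1 in place of 1, and over all genes 0 to 7 in place of 2. The amplitude of the Psmb5 difference lay between 0.57 and 0.80. The number of pools, 1 per genotype and time, limits what can be called, and for Psma8 and Psmb11 the counts do.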
